A study of Homo sapiens with 12 samples.

Results

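HCT116, a human colon cancer cell line that carries an activating mutation in the beta-catenin gene CTNNB1, was compared after 96 h of ICG-001 and after 96 h of C646, each at 10 uM. The comparison took 2 of the 12 columns of the series and used the log2 ratio of their signals for each gene row, ICG-001 over C646, so a positive ratio is a higher signal with ICG-001. A row was kept where at least 1 of these columns was above its detection limit, which held for 17005 of 34687 rows. The whole series comprised HCT116 and PANC1, a human pancreatic adenocarcinoma line, kept in 0.05% DMSO (the solvent) or in either drug at 10 uM and collected after 12 or 96 h. Per the study's methods, cells for 96 h started at a lower density, were passaged before they became dense and received new medium and drug daily, so the time points differ in more than the hours of treatment. Each HCT116 column is the authors' mean of 2 arrays from independent cultures. The single arrays were not used here, so the 2 drugs form 1 pair of columns at the same concentration and time. There is no replicate check, no test, no p-value and no interval for any difference. A small ratio therefore does not show that the drugs act alike. Signals are in arbitrary units on a linear scale, and 3 signals in a row are in the order DMSO, ICG-001 and C646.

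CBP and p300 are related histone acetyltransferases that many transcription factors recruit as co-activators. In the WNT pathway, beta-catenin bound to a TCF factor brings them to target genes, and continuous activity of this pathway is a hallmark of colon cancer. ICG-001 is directed at CBP alone, where it keeps beta-catenin from docking, while C646 inhibits the acetylation carried out by both enzymes. The direct comparison describes how the transcriptomes differ after these drugs at the same concentration. Whether that concentration is equally effective for each drug was not tested. The differences therefore cannot be assigned to the modes of action.

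The labelled cell type was checked first. All 12 epithelial markers were above the limit in both drug columns, with a summed signal of 29399 with ICG-001 and 30761 with C646. Of 14 mesenchymal and fibroblast markers, 3 were above the limit with ICG-001 and 4 with C646, and of 11 leukocyte and endothelial markers also 3 and 4. CDX2, a transcription factor of the intestinal epithelium, was above the limit with 411 and 382, whereas the other intestinal markers CDX1, VIL1, LGALS4 and CDH17 were at or under it in both columns. The median signals of the 2 drug columns were 139.6 and 139.5 and their limits 143.713 and 143.722, so the columns had the same scale. The authors' quantile normalization makes the distributions of the arrays alike, so this scale is no separate finding. Their log2 signals had a Pearson's r of 0.98 across the 17005 genes, which are not independent replicates.

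Most genes had similar signals with the 2 drugs, and the differences were split evenly between the directions. Of the 17005 genes kept, 1114 (6.55%) differed at least 1.5-fold, the size used throughout for calling a gene higher or lower, and 553 of them (3.25%) were higher and 561 (3.3%) lower with ICG-001. At least 2-fold differences were found at 124 genes in the higher and 116 in the lower direction, and at least 4-fold differences at 7 genes in each. The median log2 ratio was -0.0014, and 72.4% of genes lay within 1.2-fold. A median near 0 and an even split between the directions are in part set by the authors' quantile normalization. Rows under the limit in both columns had a log2 ratio SD of 0.069. Because background was left in the signal, the differences of dim genes are understated. With the genes split by mean signal into 4 equal groups, none in the dimmest group was called, against 2.47%, 9.76% and 14.0% in the brighter ones. Just inside the threshold lay POLR1E at -0.585 and just outside it ALDH3A2 at 0.584. These counts are of rows, and some genes have more than 1 row. Of 273 genes with several kept rows, 28 had a row called. In 9 of these 28 all rows were called the same way, and 0 had rows called in opposite directions.

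**Figure D1:**
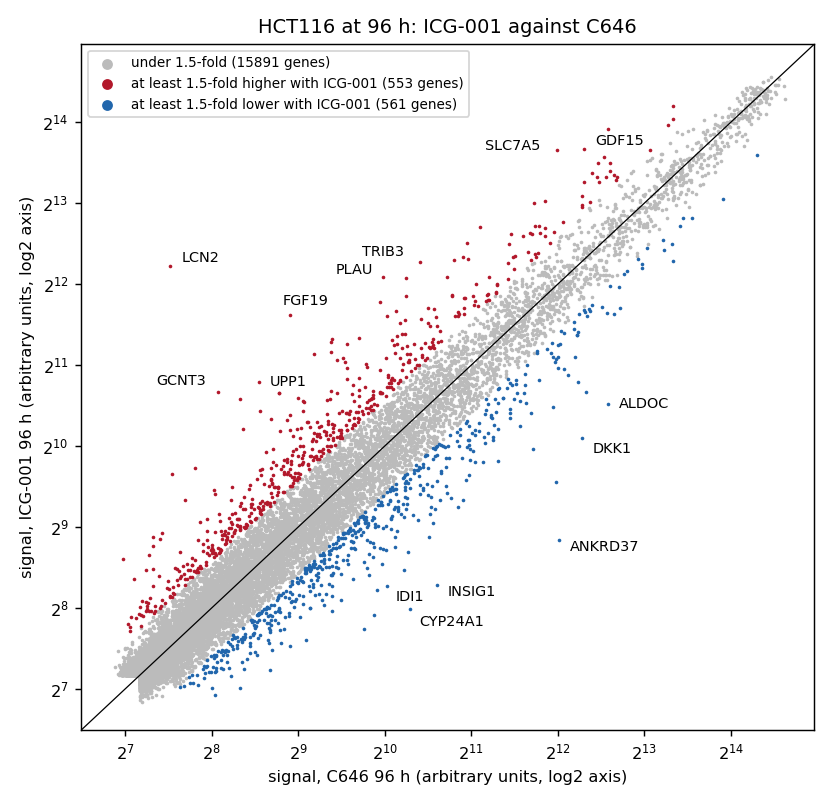
Signal of the 17005 genes kept, with C646 on the x axis and ICG-001 on the y axis, both at 96 h in HCT116, in arbitrary units on log2 axes. The diagonal marks equal signals, red points are the 553 genes at least 1.5-fold higher and blue points the 561 genes at least 1.5-fold lower with ICG-001, and LCN2 at 4802 against 184 lies farthest above the diagonal.

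The DMSO column at 96 h, which is not part of the ratio, lay nearer to C646 than to ICG-001 for most of the called genes. Of the 553 genes higher with ICG-001, the DMSO signal was nearer to C646 for 510 (92.2%), and of the 561 lower genes it was nearer to C646 for 481 (85.7%). For 418 of the higher and 368 of the lower genes ICG-001 but not C646 was at least 1.5-fold from DMSO, and for 10 and 34 genes C646 but not ICG-001 was. For 112 and 139 genes neither drug was. DMSO lay between the drugs for 239 of the higher and 302 of the lower genes. It lay below both drugs for 306 of the higher and above both for 242 of the lower genes. There C646 stood on the same side of DMSO as ICG-001. The median log2 difference from DMSO was 0.82 for ICG-001 and 0.03 for C646 among the higher genes, and -0.74 and 0.04 among the lower genes. These medians share the drug columns that chose the genes and are a description. Whether a difference in potency at the concentration used has a part in them was not tested.

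Among the genes with the highest ratios were LCN2, FGF19 and GCNT3. LCN2, a secreted lipocalin that binds iron-carrying siderophores, had signals of 154, 4802 and 184 at 96 h and 151, 578 and 145 at 12 h, a log2 ratio of 4.71 or 26.1-fold at 96 h. It was dim with DMSO and C646 at both time points and brighter in the ICG-001 columns. FGF19, an endocrine growth factor that represses bile acid synthesis, read 435, 3135 and 478 at 96 h and 459.9, 1473 and 389.5 at 12 h, a 6.56-fold difference at 96 h. GCNT3, a glycosyltransferase that builds the branched core glycans of mucins, read 199.7, 1622 and 269, a 6.02-fold difference. For all 3 genes the DMSO and C646 signals lay close together and far from ICG-001.

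UPP1, which splits uridine for reuse of its ribose, read 269, 1771 and 373 at 96 h and 261, 3665 and 383 at 12 h, so that its ratio was 2.25 at 96 h and 3.26 at 12 h. PLAU, the urokinase protease that activates plasminogen, read 700.3, 4341 and 1008 at 96 h and 624, 2994 and 466 at 12 h, a 4.30-fold difference at 96 h. Both genes were already far apart between the drugs at the early time point. FERMT1, the integrin activator kindlin-1, differed 4.74-fold at 96 h with signals of 360.1, 1526 and 322, but its ratio at 12 h was 0.54. IL20RB, a receptor subunit for cytokines of the interleukin-20 family, differed 4.33-fold, PYGB, a glycogen phosphorylase, 3.87-fold and KLK6, a secreted serine protease, 3.82-fold. ANO1, a calcium-activated chloride channel, had 2 rows with ratios of 1.91 and 1.88. At 12 h the ratio of the brighter row was 0.41.

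The genes with the lowest ratios included a hypoxia target, sterol genes and a WNT antagonist. ANKRD37, an ankyrin repeat protein induced by low oxygen, read 2137, 456 and 4124 at 96 h and 996, 347 and 507 at 12 h, which made it 9.04-fold lower with ICG-001 at 96 h. Here DMSO lay between the drugs. CYP24A1, the enzyme that breaks down active vitamin D, read 997, 253 and 1252 at 96 h and was 4.95-fold lower. At 12 h its signals of 897, 341 and 389 gave a ratio of only -0.19, as both drug columns lay under DMSO. C18orf56, now TYMSOS, the antisense gene of thymidylate synthase, was 4.05-fold lower, and ANG, the secreted ribonuclease angiogenin, 3.22-fold lower. TMSB15A, a thymosin that binds actin monomers, read 2227, 645 and 1920.4 at 96 h and 2428, 642 and 1863 at 12 h, with ratios of -1.57 and -1.54. GALK1, the first enzyme of galactose breakdown, had a ratio of -1.49 and CRABP2, which carries retinoic acid to the nucleus, -1.45. TMSB15A, GALK1 and CRABP2 were all at least 1.5-fold lower with ICG-001 at 12 h as well.

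**Figure D2:**
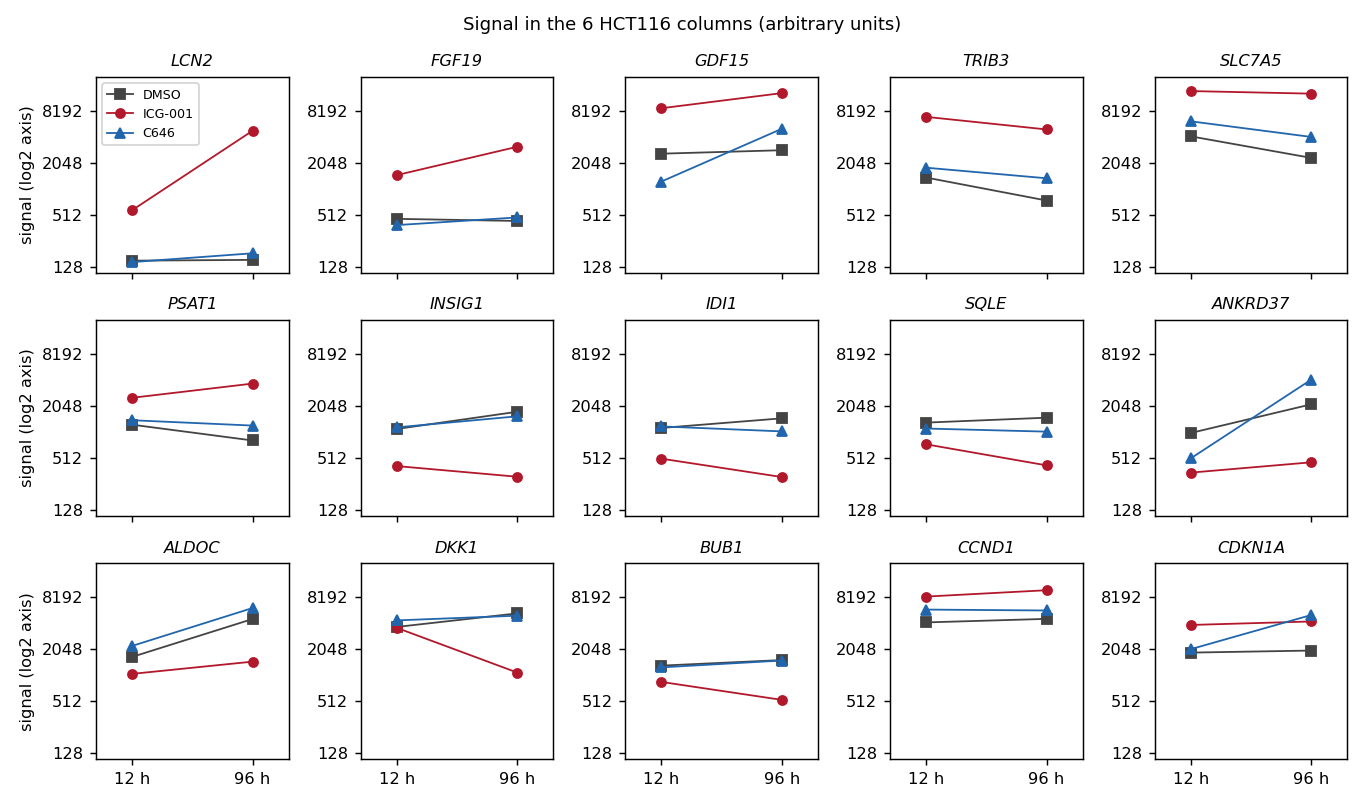
Signal, in arbitrary units on a log2 axis, of selected genes in the 6 HCT116 columns at 12 and 96 h, with DMSO as grey squares, ICG-001 as red circles and C646 as blue triangles, each the mean of 2 arrays with no error available. The ICG-001 points of LCN2, FGF19 and INSIG1 lie apart from both other treatments at both times, whereas CDKN1A at 96 h has ICG-001 at 4269 and C646 at 5072, both above DMSO at 1968.

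Most stress genes under the transcription factor ATF4 were higher with ICG-001 than with C646. ATF4 is translated when the kinases of the integrated stress response phosphorylate the initiation factor eIF2, and it raises genes for amino acid synthesis, uptake and tRNA charging. Of 17 stress regulators kept, 11 were higher and 0 lower, with a median log2 ratio of 0.77 against -0.0014 over all genes. With normexp background correction their median was 1.37. TRIB3, a pseudokinase that restrains ATF4 in a feedback loop, read 749, 4968 and 1354 at 96 h and 1381, 6949 and 1795 at 12 h, a 3.67-fold difference at 96 h. STC2, a secreted glycoprotein, read 1366, 4305 and 1216 and differed 3.54-fold, and NIBAN1, a stress-induced membrane-associated protein, differed 3.58-fold with 187, 1181 and 329.8. In STC2 the C646 signal was under that of DMSO, whereas in TRIB3 it was above.

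Several transcription factors of this response were higher as well. CEBPG, a dimer partner of ATF4, read 1102, 3255 and 1125 and had a ratio of 1.53. ATF5 had a ratio of 1.37, DDIT3 (CHOP, a factor linked to cell death under stress) of 1.23 and CEBPB of 0.95. CHAC1, which degrades glutathione, had a ratio of 1.25. ATF4 itself read 3789, 6207 and 4206, a ratio of 0.56 just under the threshold, and ATF3 differed by 0.06. NUPR1, a small chromatin-associated stress protein, read 136, 262 and 153 at 96 h and 151, 167 and 152 at 12 h, and was close to the limit in the DMSO and C646 columns. Its ratio was 0.77 at 96 h and 0.14 at 12 h. EIF2AK3, the gene of the eIF2 kinase PERK, had a ratio of -0.13.

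Enzymes, transporters and tRNA synthetases of amino acid metabolism were higher in part. Of 17 genes of serine, asparagine and proline synthesis, 10 were higher and 0 lower, with a median of 0.62. PSAT1, the aminotransferase of serine synthesis, read 816, 3709 and 1213 at 96 h and 1243, 2541 and 1398 at 12 h, a 3.06-fold difference at 96 h. GPT2, the mitochondrial alanine aminotransferase, had nearly equal DMSO and C646 signals with 747, 2100.3 and 747. PHGDH, the first enzyme of serine synthesis, read 5276, 12195 and 5913, and ASNS, asparagine synthetase, 2371, 6755 and 3404. Further higher members were PYCR1 at 0.91, PSPH at 0.82, MTHFD2 at 0.72, GOT1 at 0.68 and MTHFD1L at 0.60. CBS and CTH, which make cysteine from homocysteine, lay at -0.21 and -0.08.

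Of 16 amino acid transporters, 6 were higher and 0 lower, with a median of 0.26, which became 0.12 without the filter on dim genes and 0.71 with normexp background correction. SLC3A2 and SLC7A5, the chains of the large neutral amino acid exchanger, had ratios of 1.79 and 1.66. SLC7A5 read 2329.8, 12886 and 4070.2 at 96 h and 4137, 13802 and 6170.5 at 12 h, with C646 above DMSO at both times and ICG-001 above both. SLC38A1 and SLC1A5, which carry glutamine, lay at 1.18 and 1.15, the arginine and lysine carrier SLC7A1 at 1.15 and the glycine carrier SLC6A9 at 0.70. SLC7A11, the cystine and glutamate exchanger, lay at 0.40, under the threshold.

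Aminoacyl-tRNA synthetases charge tRNAs with their amino acids, with separate sets of enzymes for the cytosol and the mitochondria. Of 15 cytosolic synthetases, 4 were higher and 0 lower, with a median of 0.46, while of 17 mitochondrial ones 0 were higher and 1 lower, with a median of -0.09. The tryptophan enzyme WARS1 read 496, 2147 and 697 at 96 h, a ratio of 1.62. The asparagine, isoleucine and alanine enzymes NARS1, IARS1 and AARS1 had ratios of 0.84, 0.83 and 0.76. The mitochondrial serine enzyme SARS2 was lower at -0.66. The cytosolic enzymes of glycine, methionine, glutamine and serine could not be matched to 1 row and have no value.

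The promoters of these genes were searched on both strands for the C/EBP-ATF element, TGATGNAA, the composite site that ATF4 and C/EBP dimers recognise. RefSeq promoter windows on GRCh38.p14 held it in 1270 of 35116 promoters (3.62%), in 2 of 16 stress regulators (12.5%), 3 of 11 amino acid synthesis genes (27.3%), 4 of 15 transporters (26.7%) and 5 of 12 cytosolic synthetases (41.7%). A match is a description of the letters and no evidence of binding in HCT116. The following windows of 6 members show the element in its context. They lie wholly upstream of the gene start and are 5′ to 3′ on the strand of the gene with the element in capitals, which reads as the reverse complement where it lies on the opposite strand.
ASNS: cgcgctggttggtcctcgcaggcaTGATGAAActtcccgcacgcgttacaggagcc
CHAC1: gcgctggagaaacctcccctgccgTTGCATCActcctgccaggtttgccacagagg
MTHFD1L: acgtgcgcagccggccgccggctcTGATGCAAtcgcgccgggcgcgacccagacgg
GOT1: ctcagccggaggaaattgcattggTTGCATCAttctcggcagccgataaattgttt
AARS1: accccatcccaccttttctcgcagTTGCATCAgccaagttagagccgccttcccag
ATF3: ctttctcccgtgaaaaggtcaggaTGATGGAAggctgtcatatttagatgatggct
The windows are chr7:97872445-97872500 (minus strand) for ASNS, chr15:40953238-40953293 (plus strand) for CHAC1, chr6:150866333-150866388 (plus strand) for MTHFD1L, chr10:99430791-99430846 (minus strand) for GOT1, chr16:70289662-70289717 (minus strand) for AARS1 and chr1:212565192-212565247 (plus strand) for ATF3. The element of ASNS starts at position -68 and that of CHAC1 at position -209 relative to the gene start. The first 5 of these genes were higher with ICG-001, while ATF3, and the glutamate carrier SLC1A3 that holds the element too, had ratios of 0.06 and -0.28. The synthetase genes TARS1 and CARS1 also hold it and were under the threshold, both at 0.46. SLC3A2, SLC38A1, SLC7A1, IARS1 and NARS1 hold it as well and were higher.

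**Figure D3:**
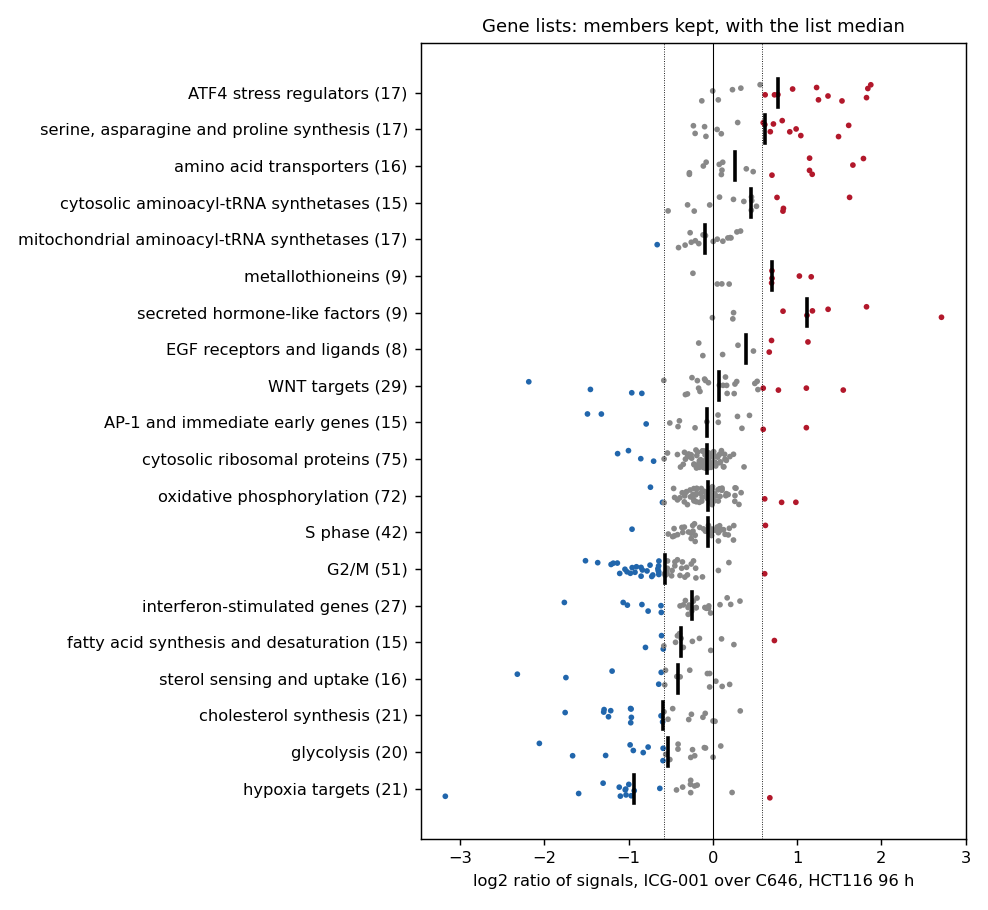
Log2 ratio of ICG-001 over C646 at 96 h in HCT116 for the members kept of 20 gene lists (number of members in brackets), with each member a point, red where at least 1.5-fold higher, blue where at least 1.5-fold lower and grey otherwise. Black bars are list medians, dotted lines mark 1.5-fold, and the medians range from -0.93 for hypoxia targets to 1.12 for secreted hormone-like factors.

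Many genes of cholesterol synthesis and uptake were lower with ICG-001. When membrane sterol is scarce, the factor SREBP2 is released from the endoplasmic reticulum, where INSIG proteins hold it, and raises the genes of the whole pathway. All 21 enzymes of the pathway were kept, 11 were lower and 0 higher, with a median of -0.60. IDI1, the isomerase that makes the isoprenoid building block dimethylallyl pyrophosphate, read 1471, 308 and 1039 at 96 h and 1139, 503 and 1186 at 12 h, a 3.37-fold difference at 96 h. SQLE, squalene epoxidase, read 1497, 421 and 1032, 2.45-fold lower.

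IDI1 and SQLE were also under DMSO with C646, but less so than with ICG-001. The ratio was -1.29 for MSMO1, a sterol methyl oxidase, and -1.21 for FDPS, the farnesyl pyrophosphate synthase. The ketothiolase ACAT2, HMGCS1, FDFT1 and DHCR7 lay between -0.98 and -0.97. SC5D, a late sterol desaturase, was the member with the highest ratio, 0.33. The median difference from DMSO, which uses the same drug columns, was -0.82 for ICG-001 and -0.20 for C646.

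Of 16 genes of sterol sensing and uptake, 5 were lower and 0 higher, with a median of -0.41. INSIG1, the sterol-dependent anchor of SREBP and itself a target of it, read 1753, 311 and 1553 at 96 h and 1109, 413 and 1156 at 12 h, a ratio of -2.32 at 96 h. LPIN1, a phosphatidate phosphatase, lay at -1.196 and INSIG2 at -0.64. The genes of the sensors and factors themselves, SCAP, SREBF2 and SREBF1, lay at -0.04, -0.06 and 0.20, and the cholesterol exporters ABCA1 and ABCG1 at 0.04 and 0.11. A search for the sterol element TCACNCCAC on both strands found it in 396 of 35116 promoter windows (1.13%), in 0 of 16 cholesterol synthesis genes and in 1 of 12 genes of sterol sensing and uptake, SREBF2. Only 16 of the 21 enzymes and 12 of the 16 sensing genes were matched to a window, which is a short stretch around 1 gene start. The count says only that these letters are not in the other windows. Elements farther away or in another form would be missed.

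Fatty acid genes are targets of the related factor SREBP1. Of 15 kept, 3 were lower and 1 higher, with a median of -0.38. FASN, the fatty acid synthase, read 10296, 5498 and 9573 at 96 h, a ratio of -0.80, whereas its ratio at 12 h was -0.12. ACACA, which makes malonyl-CoA, and ACSL1, an acyl-CoA synthetase, were just past the threshold at -0.59 and -0.61. The desaturase SCD lay at -0.42. MID1IP1, an activator of acetyl-CoA carboxylase, was the higher member and read 1096, 1280.0 and 771.

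Many genes of hypoxia and glycolysis were lower with ICG-001 than with C646. The factor HIF1 is stabilised when oxygen is low and raises genes for glucose use, acid handling and blood vessel growth. Of 21 hypoxia targets kept, 12 were lower and 1 higher, with a median of -0.93. ANGPTL4, a secreted inhibitor of lipoprotein lipase, read 828, 609.7 and 1839.6 at 96 h and 469, 379 and 484 at 12 h, a ratio of -1.59 at 96 h. HILPDA, a lipid droplet protein, read 960.0, 647 and 1596, a ratio of -1.30. In both genes C646 lay above DMSO and ICG-001 below it. CA9, a membrane carbonic anhydrase, was at or under the limit with ICG-001, and with 263 with C646 it was at least 1.83-fold lower. KDM3A, ADM, PFKFB4, BNIP3, EGLN1, P4HA1 and BHLHE40 lay between -1.10 and -0.93. VEGFA, the growth factor of blood vessels, went the other way with 164, 312 and 195, a ratio of 0.68.

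Of 20 genes of glucose uptake and glycolysis, 9 were lower and 0 higher, with a median of -0.54. ALDOC, an aldolase, read 4559, 1466 and 6110.4 at 96 h and 1662, 1058 and 2225 at 12 h, a 4.17-fold difference at 96 h. GPI, the second enzyme of the pathway, read 5163, 1625 and 5152, a 3.17-fold difference with C646 at the level of DMSO. SLC2A3, a glucose transporter, read 1256, 329 and 796 at 96 h and 642, 847 and 235 at 12 h, with ratios of -1.27 and 1.85. PFKM lay at -0.98, PGAM1 at -0.94, PGK1 at -0.83 and ALDOA at -0.77. The main glucose transporter gene SLC2A1 and PDK1, a kinase that inhibits pyruvate dehydrogenase, lay at 0.00 and 0.09.

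The same lists also differed between the DMSO columns of the 2 time points, which were cultured differently. From 12 h to 96 h in DMSO the median log2 difference was 0.60 for the hypoxia targets and 0.36 for glycolysis, against 0.01 over all genes. From DMSO at 96 h, the hypoxia median was -0.44 for ICG-001 and 0.21 for C646, and that of glycolysis was -0.76 and -0.10. Oxygen and cell density were not measured, and their part in these differences was not tested.

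About as many mitotic genes were lower with ICG-001 as were not called, and few genes of DNA replication were called. Of 51 G2/M genes kept, 25 were lower and 1 higher, 48 had a ratio below 0, and the median was -0.57. BUB1, a kinase of the spindle checkpoint, read 1528, 529 and 1509.5 at 96 h and 1318, 854 and 1258 at 12 h, a 2.85-fold difference at 96 h. TTK, the checkpoint kinase MPS1, read 1497, 595 and 1535 and AURKA, a kinase of the spindle poles, 1515, 725 and 1675. In these genes C646 lay near DMSO and ICG-001 below both. ANLN, a scaffold of the cleavage furrow, had a ratio of -1.18, CCNB2, a mitotic cyclin, -1.13, and HMMR and NUSAP1, which organise spindle microtubules, -1.11 and -1.04. MKI67, the proliferation antigen Ki-67, lay at 0.07 and BIRC5, survivin, at -0.30. CKS1B, a small subunit of cyclin-dependent kinases, was the higher member with 3034, 5345 and 3489. In bulk RNA, fewer cells in G2 and mitosis cannot be told apart from less of these RNAs per cell.

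Of 42 S phase genes, 1 was higher and 1 lower, with a median of -0.05. ATAD2, a chromatin ATPase, was lower with 989, 588 and 1143 and a ratio of -0.96. CCNE2, the cyclin of S phase entry, read 182, 349 and 226 at 96 h and 476, 357 and 566 at 12 h, with ratios of 0.62 and -0.66. The replication licensing genes MCM4, MCM5, MCM6 and MCM7 lay between -0.37 and 0.07, and PCNA, the sliding clamp, at -0.04. From 12 h to 96 h in DMSO, S phase genes had a median difference of -0.75 and G2/M genes one of -0.17. From DMSO at 96 h the G2/M median was -0.44 for ICG-001 and 0.12 for C646, and the S phase median 0.15 and 0.23.

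Of 14 cyclins and CDK inhibitors, 2 were higher and 4 lower, with a median of -0.23, or -0.095 without the filter. CCND1, cyclin D1, which starts the cell cycle, read 4574, 9808 and 5718 at 96 h and 4164, 8282 and 5857 at 12 h, a ratio of 0.78 at 96 h. CDKN1A, the CDK inhibitor p21, read 1968, 4269 and 5072 at 96 h and 1864, 3890.0 and 2042 at 12 h. Both drug columns lay well above DMSO at 96 h, with a ratio between them of -0.25. At 12 h C646 was only slightly above DMSO and ICG-001 well above both, with a ratio of 0.93. CCNA2 lay at -0.86 and CCNB1 at -0.60.

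WNT target genes were split. Of 29 kept, 4 were higher and 4 lower, with a median of 0.08 that became -0.0031 without the filter, and part of this list was chosen by the study on these samples. DKK1, a secreted antagonist of WNT receptors, read 5294, 1095 and 4981 at 96 h and 3689.7, 3602 and 4393 at 12 h, so that it was 4.55-fold lower with ICG-001 at 96 h and had a ratio of -0.29 at 12 h. MYC, the growth-promoting transcription factor, read 4307, 2190.2 and 3929 at 96 h and 3267, 4164 and 3623 at 12 h, with ratios of -0.84 and 0.20. ID2, which blocks differentiation factors, had a ratio of -1.45 and IRX3, a homeobox factor, -0.96. FGF9, a secreted growth factor, was higher with 214, 468 and 160.1 and a ratio of 1.55. AXIN2, the classical feedback target of beta-catenin, read 643, 617 and 514 at 96 h and 766, 249 and 827 at 12 h, with ratios of 0.26 and -1.73. S100A4, a calcium-binding protein of cell motility, lay at -0.18, and RNF43 and SOX9 at 0.53 and 0.54.

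None of the 15 genes kept of the TCF and beta-catenin complex and its co-activators differed 1.5-fold, and their median was -0.02. CREBBP, the gene of CBP, read 481, 538 and 473, a ratio of 0.19, and EP300, the gene of p300, 183, 173 and 176, a ratio of -0.02. CTNNB1, the gene of beta-catenin, read 547, 354 and 354 at 96 h and 611, 400.4 and 367 at 12 h, lower with both drugs than with DMSO and equal between them at 96 h. TCF7L2, the main TCF factor of the colon, read 800.3, 317 and 410.2 at 96 h and 596, 271 and 333 at 12 h, a ratio of -0.37 at 96 h with both drugs under DMSO. GSK3B, a kinase that marks beta-catenin for destruction, had the largest ratio in size, -0.55. These are RNA signals, and neither protein nor acetylation was measured.

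Growth factor signalling genes were mixed. Of 15 AP-1 and immediate early genes, 2 were higher and 3 lower, with a median of -0.07. JUN read 594, 917 and 606 and FOSL1 361, 647 and 299.9, with ratios of 0.60 and 1.11. The further AP-1 genes FOS and FOSB and the early response factor EGR1 had ratios of -1.49, -0.79 and -1.32. EGR1 read 2554, 802 and 2007 at 96 h and 1361, 1738 and 616 at 12 h, so the drugs stood in the reverse order at 12 h. Of 17 ERK feedback genes, 3 were higher and 1 lower, with a median of 0.32. DUSP6, the phosphatase of ERK, lay at 0.61, and SPRY1, an inhibitor of receptor signalling, at -0.70. Of 8 EGF receptors and ligands kept, 3 were higher and 0 lower, with a median of 0.39, or 0.079 without the filter. The ligands HBEGF, TGFA and EREG had ratios of 1.13, 0.70 and 0.67, and the receptors EGFR, ERBB2 and ERBB3 -0.17, 0.30 and 0.12. EREG read 727, 693 and 436, with ICG-001 close to DMSO and C646 under both.

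Of 11 YAP and TEAD targets, 3 were higher and 0 lower, with a median of -0.01 that turned to 0.019 with the limit at 5 SD. They were NT5E, the ectoenzyme CD73 that makes adenosine, at 1.56, AXL, a receptor tyrosine kinase, at 1.25 and F3, tissue factor of blood clotting, at 0.62. The classical targets CCN1 and CCN2 lay at -0.37 and -0.01. NT5E read 605, 2168 and 734 and AXL 404, 995 and 419, with DMSO and C646 near each other.

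Secreted hormone-like factors were higher in part. Of 9 kept of 17, 6 were higher and 0 lower, with a median of 1.12. The median rests on the filter, as it was 0.12 over all members matched. GDF15, a stress hormone that lowers appetite, read 2859, 13074 and 5065 at 96 h and 2607, 8740.5 and 1242 at 12 h. C646 lay under DMSO at 12 h and above it at 96 h, and the ratio was 2.81 and 1.37. IGFBP6, a binding protein of insulin-like growth factors, read 941, 2662 and 1173, VGF, a secreted neuropeptide precursor, had a ratio of 1.12 and ADM2, a vasoactive peptide, 0.83. IGFBP3 lay at -0.01. Of the mucin and mucosal secretion list, 8 of 28 genes were kept and 3 were higher, namely LCN2, GCNT3 and S100P, with a median of 0.42, which became -0.0033 without the filter and 0.64 with the stricter limit of 5 SD. S100P, a calcium-binding protein, passed the filter through ICG-001 alone and was above the limit with ICG-001 at 223 and at or under it with C646, at least 1.55-fold higher. The mucin genes MUC1 and MUC4 lay at 0.06 and -0.01. Of 23 genes of intestinal differentiation, 6 were kept and none was called, with a median of -0.08 (-0.013 without the filter), and the largest in size was -0.48 at CA2, a carbonic anhydrase.

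Metallothioneins, which bind zinc and copper, were higher in 5 of 9 genes kept, with 0 lower and a median of 0.70, against 0.15 without the filter. MT1X read 1723, 6309 and 2808, MT1G 330.5, 872 and 428 and MT2A 8021, 16790.3 and 10316. Their sequences are nearly alike, so signals of one may hold RNA of another. MTF1, the metal-sensing factor that drives them, lay at 0.19 and the zinc exporter SLC30A1 at -0.24. Of 19 NRF2 targets, 3 were higher and 2 lower, with a median of 0.04. The higher genes were FTH1, the ferritin heavy chain, with 1356, 5148 and 1920.2, SRXN1, which restores peroxiredoxins, at 1.22 and GCLM, a glutathione synthesis subunit, at 0.74. The lower genes were AKR1C3 at -0.87 and TKT at -0.79. The classical targets NQO1, HMOX1 and TXNRD1 lay at 0.42, 0.16 and 0.06.

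Of 18 ER chaperones and their regulators, 4 were higher and 0 lower, with a median of 0.12. HSPA5, the main ER chaperone BiP, read 734, 1618 and 699.6, a ratio of 1.21, and XBP1, a factor of the unfolded protein response, 1745, 3643 and 1935, a ratio of 0.91. HYOU1 read 536, 491 and 263, so there its ratio of 0.90 came with C646 under DMSO. HSP90B1, CALR and PDIA4, chaperones of the same compartment, lay at -0.23, -0.15 and -0.07. Of 15 cytosolic and mitochondrial heat shock chaperones, 0 were higher and 1 lower, with a median of 0.01. The lower one, HSPA4, lay at -0.60. HSPA8, the constitutive chaperone of the cytosol, read 6654, 11770.4 and 8337 at 96 h and 10606, 6191 and 15016 at 12 h, with ratios of 0.50 and -1.28.

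Of 27 interferon-stimulated genes, 7 were lower and 0 higher, with a median of -0.25, or -0.50 with normexp background correction. IFI6, a mitochondrial antiviral protein, read 1165, 353 and 1199 at 96 h and 738, 497 and 766 at 12 h, a 3.39-fold difference at 96 h. ISG20, an exonuclease, had a ratio of -1.06 and IFITM3, which blocks virus entry, -1.01. None of 18 NF-kB targets was called, with a median of 0.12, and CXCL8 had the highest ratio at 0.55. Of 22 p53 targets, 3 were higher and 3 lower, with a median of -0.06. GADD45A, TNFRSF10B and SESN2 lay at 0.64, 0.66 and 0.73, and CCNG1 at -0.91.

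The large housekeeping lists had medians near 0. Of 72 oxidative phosphorylation genes, 3 were higher and 2 lower, with a median of -0.06. Complex I subunit NDUFA6 was the highest at 0.99 and complex III subunit UQCRB the lowest at -0.74. Of 75 ribosomal protein genes, 0 were higher and 4 lower, with a median of -0.07, and the lower ones were RPS21, RPL29, RPL13A and RPS9, between -1.13 and -0.70. Ribosomal protein genes have many near-identical copies in the genome, so single members are uncertain. Of the epithelial markers, 1 was higher and 2 lower, with CLDN7 at 0.62 and ELF3 and KRT19 at -0.96 and -0.74.

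The same drug comparison at 12 h shares no column with that at 96 h. At 12 h 6.31% of 16962 genes differed at least 1.5-fold, 3.47% higher and 2.84% lower with ICG-001. Across 15588 genes kept at both times, Pearson's r between the log2 ratios was 0.45 and Spearman's rho 0.38, as a description over genes, which are not independent. Of 550 genes higher at 96 h, 223 were also higher at 12 h and 5 lower. Of 560 genes lower at 96 h, 130 were also lower at 12 h and 25 higher. The stress regulators had a median of 1.19 at 12 h with 11 of 17 higher and 1 lower. Cholesterol synthesis had one of -0.67 with 13 of 21 lower and 0 higher, so both medians stood on the same side at both times. The cell cycle lists had other values. At 12 h 23 of 42 S phase genes were lower and 0 higher, with a median of -0.65, while 4 of 51 G2/M genes were lower, with a median of -0.14. Hypoxia targets had a median of -0.32 at 12 h, and heat shock chaperones -0.83 with 10 of 15 lower.

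**Figure D4:**
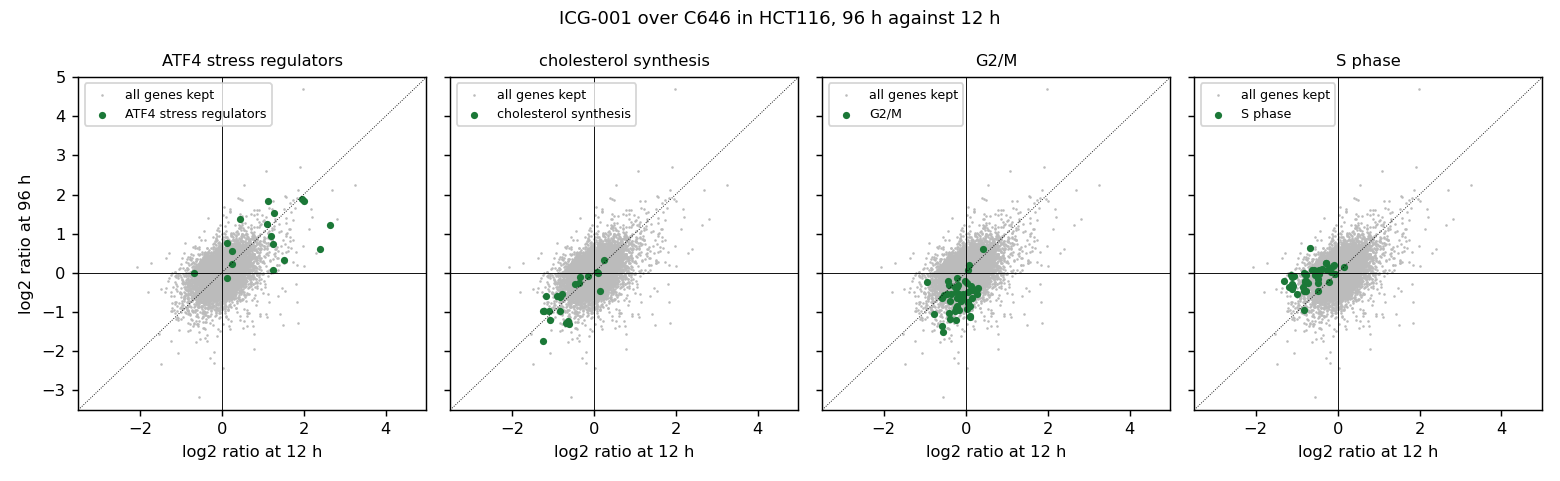
Log2 ratio of ICG-001 over C646 in HCT116 at 12 h on the x axis and at 96 h on the y axis, with all genes kept in grey and the named list in green in each panel. Most stress regulators lie above 0 and most cholesterol synthesis genes below 0 on both axes, while most G2/M genes lie low on the 96 h axis and most S phase genes low on the 12 h axis, as in the medians of -0.57 and -0.65.

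In PANC1 at 96 h the same drugs were compared in columns of their own. There 6.84% of 17552 genes differed at least 1.5-fold, 3.34% higher and 3.5% lower with ICG-001. Across 15141 genes kept in both lines, Pearson's r with HCT116 was 0.41 and Spearman's rho 0.38. Of 522 genes higher in HCT116, 156 were also higher in PANC1 and 1 lower, and of 512 lower genes, 107 were also lower and 10 higher. The stress regulators had a median of 0.78 in PANC1, with 12 of 17 higher, and cholesterol synthesis -0.83, with 15 of 21 lower. NUPR1 had a ratio of 1.81 in PANC1, and PSAT1 and INSIG1 1.65 and -1.75. LCN2, FGF19 and GCNT3, 3 of the highest in HCT116, had ratios of 0.14, 0.05 and 0.05 in PANC1, where their signals lay near background, with 133 for FGF19 and 149 for LCN2 with ICG-001. Hypoxia targets had a median of 0.04 in PANC1, with 3 of 18 lower and 1 higher. Glycolysis genes had a median of -0.36 there, with 4 of 19 lower, and G2/M genes -0.32, with 4 of 51 lower. Interferon-stimulated genes and NF-kB targets had medians of 0.26 and 0.60, with 8 of 26 and 10 of 17 higher. The differences between times and between lines were not tested.

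**Figure D5:**
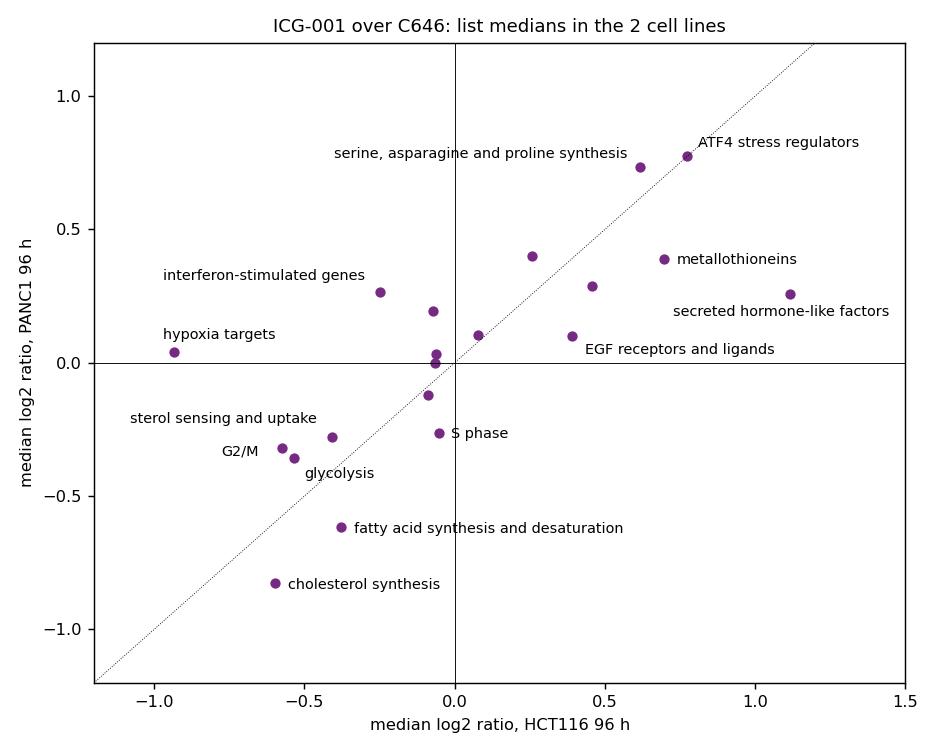
Median log2 ratio of ICG-001 over C646 at 96 h for 20 gene lists, in HCT116 on the x axis and PANC1 on the y axis, with the dotted line at equal medians. The ATF4 stress regulators at 0.77 and 0.78 lie close to this line, while hypoxia targets at -0.93 and 0.04 lie far from it.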

How the data were processed

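Illumina HumanHT-12 v4 BeadChips measured total RNA. The deposited table gives linear signal intensity, 1 value for each gene name in each group. In GenomeStudio the authors applied quantile normalization but did not subtract background, and they then took the mean of replicate arrays. The array annotation's build was not given in the sources used here. The cell lines appear to have been normalized apart, so they were compared through ratios only. Array number limits the precision.

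Log2 ratios of the columns were computed in Python 3.11.15 with pandas 2.3.3 and numpy 2.4.6. A gene was above the limit of a column where its log2 signal exceeded the mode of that column by 2.33 SD, with the SD from values below the mode. Genes were called at 1.5-fold, with no test, as each group has 1 column. Where 1 column was at or under its limit, that limit replaced the dim signal and the fold is a lower bound. On simulated columns, made from the C646 column at 96 h with added noise, 200 of 200 genes changed 2-fold were recovered among 15771. A 2-fold change lies past the 1.5-fold threshold, so this checks the computing steps only. It does not measure how many real differences of dim genes are missed. Rows were matched to the RefSeq gene table of GRCh38.p14, 17755 by a current symbol, 3305 by an older one and 2669 by gene identifier, while 10814 stayed unmatched and 144 carry an older name of several genes. The 6 list genes whose row names were ambiguous (GARS1, MARS1, QARS1, SARS1, CDK1 and JPT1) have no value. A list gene took the row of its listed name where there was one, even if a row of another name was brighter. For OSGIN1 that dim row had a ratio of -0.01, whereas its brighter row, OKL38, was lower at -0.68. Counts of list members rest on this choice. The table held 0 columns of other series.

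Members and gene lists were chosen with earlier results of these data known. The lists overlap, so genes such as CCND1, FOSL1, JUN, STC2 and SESN2 are counted in more than 1 of them. The genes named were the 12 highest and 12 lowest ratios, the 8 highest and 8 lowest of those also called the same way at 12 h, the 4 members with the largest ratios of each list and any called against the list median, and the genes of the transcription complex and the study's WNT model with CDKN1A and NUPR1. A few genes that this rule selects are not reported here. Further list members are named for context and were chosen after their values were seen. The alternatives tried were calling at 1.2-fold or 2-fold, no filter, a limit at 5 SD, both columns above the limit, normexp background correction (limma 3.58.1, offset 16), median centring and quantile normalization over all 12 columns.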

Additional observations from a re-analysis of the deposited data

Results flagged for a closer look

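These genes differed at least 1.5-fold in opposite directions between the 96 h comparison in HCT116 and another comparison of the same drugs. In no case was the difference tested. Against 12 h in HCT116 the log2 ratio of the glucose transporter SLC2A3 was -1.27 at 96 h and 1.85 at 12 h, a difference of -3.12. For the early response factor EGR1 it was -1.32 and 1.498, a difference of -2.82, and for the histone gene HIST1H2BD -1.96 and 0.78, a difference of -2.74. ISG20 had -1.06 and 1.09, a difference of -2.15, and the epithelial transcription factor ELF3 -0.96 and 0.63, a difference of -1.59. The cyclin CCNE2 went the other way, with 0.62 at 96 h and -0.66 at 12 h, a difference of 1.29. Over the 15588 genes kept at both times, 30 were opposite in this sense, 5 of the 550 higher and 25 of the 560 lower at 96 h. For scale, 3.47% of all genes kept at 12 h were higher and 2.84% lower, so the counts are a description only.

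Against PANC1 at 96 h, ID2 had -1.45 in HCT116 and 0.92 in PANC1, a difference of -2.38. ISG20 had -1.06 and 0.92, a difference of -1.99, and the homeobox gene IRX3 -0.96 and 0.84, a difference of -1.80. CLDN7, a claudin of tight junctions, had 0.62 in HCT116 and -0.69 in PANC1, a difference of 1.31. Over the 15141 genes kept in both lines, 11 were opposite, 1 of the 522 higher and 10 of the 512 lower in HCT116. For scale, 3.34% of all genes kept in PANC1 were higher and 3.5% lower, so these counts too are a description only.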

How the results depend on the processing

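The fold threshold moved the counts most, with 4688 genes (2278 higher and 2410 lower) at 1.2-fold and 240 (124 higher and 116 lower) at 2-fold. Normexp background correction gave 2737 genes, 1338 higher and 1399 lower, and list medians of 1.37 for the ATF4 stress regulators, 0.71 for amino acid transporters, -0.16 for mitochondrial synthetases, -0.68 for cholesterol synthesis, -0.73 for G2/M, 0.44 for ERK feedback, 0.59 for EGF receptors and ligands, 1.23 for secreted hormone-like factors, 0.75 for mucins, -0.21 for intestinal differentiation and -0.50 for interferon-stimulated genes. Lists with many dim members depended on the filter. Without it the medians were 0.12 for secreted hormone-like factors, 0.15 for metallothioneins, -0.0033 for mucins, 0.079 for EGF receptors and ligands, 0.12 for amino acid transporters, -0.0031 for WNT targets, -0.095 for cyclins and CDK inhibitors, -0.013 for intestinal differentiation and -0.63 for hypoxia targets. The medians of amino acid transporters, WNT targets and EGF receptors and ligands were 0.40, 0.16 and 0.48 with the limit at 5 SD and 0.11, 0.16 and 0.48 with both columns above the limit, and that of mucins was 0.64 at 5 SD. Quantile normalization over all 12 columns gave 0.61 for metallothioneins. Other counts over all genes moved by less than 1.5 times, other list medians, marker lists aside, by less than the log2 ratio SD of rows under the limit, 0.069, and the correlations with 12 h and PANC1 by less than 0.05. No list median of at least 1.5-fold changed sign. Besides those of mucins and WNT targets, the medians of YAP and TEAD targets (0.019 at 5 SD), heat shock chaperones (-0.0033 with normexp and -0.0026 with quantile normalization), epithelial markers (-0.040 at 5 SD) and leukocyte and endothelial markers (0.084 with both columns above the limit and 0.0022 without a filter) did, and so did CTNNB1 at 0.0013 after centring. All 121 named genes called at 1.5-fold kept their direction in every setting that evaluated them, 119 of them with both columns above the limit and 121 in the other settings. With quantile normalization over all 12 columns 120 of them stayed past 1.5-fold, and normexp raised 12 of 39 others past it. No paired analysis was possible because each group has 1 column, the authors' mean, and leaving out a replicate could not be run for the same reason. Signal over background limits what can be seen, as none of the 4252 dimmest genes was called.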

Other observations

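Histone and small RNA rows were looked at after their values were seen. Of 70 rows named for histone genes, 23 were kept, of which 8 were lower and 0 higher with ICG-001 than with C646 at 96 h, with a median log2 ratio of -0.23. HIST1H2BD, an H2B gene, read 556, 242 and 938 with DMSO, ICG-001 and C646 at 96 h and 372, 427 and 249 at 12 h, so that its ratio was -1.96 and 0.78. HIST1H2BK, the linker histone gene HIST1H1C and HIST1H2AC had ratios of -1.57, -1.41 and -1.24. HIST2H2AA3 and HIST2H2AA4, at -1.04 and -1.09, are near-identical copies whose RNAs cannot be told apart. At 12 h the median of the histone rows was 0.38, with 4 higher and 0 lower.

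Of 300 rows of small nucleolar and Cajal body RNAs, which guide the modification of ribosomal and spliceosomal RNA, 150 were kept, 16 were lower and 0 higher, with a median of -0.14. SNORA12 read 2740, 752 and 4029 at 96 h and 2703, 1897 and 1863 at 12 h, with ratios of -2.42 and 0.03, and in PANC1 at 96 h its ratio was -2.08. Most histone mRNAs and mature small nucleolar RNAs have no poly(A) tail, on which the labelling starts, and which transcripts these rows read was not tested.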
